A study of Homo sapiens with 4 samples.

Results

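ARHGAP29 and ADK are 2 of the 63677 genes counted by RNA-seq in HCT116 cells, a human colorectal cancer cell line, and both had lower counts in cells given an antisense oligonucleotide (ASO) against GAA repeats. They were chosen by those counts, as genes lowered with the anti-GAA ASO, and were found by matching their Ensembl identifiers (ENSG00000137962 and ENSG00000156110) to the rows of the count table, so their change between the conditions is described here and not tested. The 4 libraries came from cells transfected with the anti-GAA ASO (2 libraries) or with a non-targeting control ASO (2 libraries), all of the same line and all given an ASO, with no untransfected library among them. The anti-GAA ASO is a run of TTC units of 21 nt, complementary to 7 tandem GAA units, with modified wings around a DNA centre of the kind that lets RNase H cut the paired RNA. The study used it because tandem GAA repeats were frequent in the RNAs bound by ORC1, the largest subunit of the origin recognition complex that marks where DNA replication can start. The labels give 48 h of transfection, whereas the study's methods describe a shorter one for ASOs. The labels also name a total RNA library kit and the methods a stranded mRNA kit. The methods call the 2 libraries of a condition duplicate experiments and say no more of how they were separated.

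ARHGAP29 encodes a GTPase-activating protein. Such proteins speed up the hydrolysis of GTP by small GTPases and so switch them off, and ARHGAP29 acts mainly on RHOA. It is recruited by Rap GTPases through RASIP1 and RADIL, lowers actomyosin tension, is a known target gene of the coactivator YAP, and is associated with cleft lip. ADK encodes adenosine kinase, which phosphorylates adenosine to AMP and so keeps the intracellular level of adenosine low. Clearing adenosine also lets S-adenosylhomocysteine hydrolase (AHCY) run forward, which keeps the methionine cycle and methyl transfer going. Both genes are transcribed over long stretches of DNA.

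The GAA content of the 2 genes was read from GRCh38 with the GENCODE 44 gene models, on the RNA strand. A GAA run means an unbroken stretch of the repeat in any frame. The runs are shown because the ASO is complementary to the repeat, and pairing with them was not measured. Flanking bases are in lower case and the run is in capitals, 5′ to 3′. Shown are the longest exonic run of each gene and its intronic runs of 12 nt or more. Those of ARHGAP29 lie at chr1:94189937-94189945, chr1:94153715-94153728 and chr1:94268702-94268714 on the minus strand. The ADK runs lie at chr10:74406527-74406568 and chr10:74708520-74708527 on the plus strand.
ARHGAP29 exon 13, coding sequence: aaattcaactGAAGAAGAAaaagttgatg
ARHGAP29 intron, longer: aaaaaaaaAAGAAGAAGAAGAAccagcaaa
ARHGAP29 intron, shorter: tttctaaaAAGAAGAAGAAGAtaatcatt
ADK intron 6: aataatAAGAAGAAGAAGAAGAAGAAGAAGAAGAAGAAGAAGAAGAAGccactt
ADK exon 11, 3′ UTR: ccatattaataAAGAAGAAaattatctgcc

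The 2 genes held the repeat in very different amounts and places. ADK carried an intronic run of 42 nt, in which 7 windows of 21 nt matched all 21 bases that the ASO can pair with. That run sits in intron 6 of the 10 introns of the MANE Select transcript (the representative coding transcript of the annotation), 255325 nt from the gene start. The intron is 126676 nt long and its next exon begins 118687 nt beyond the run. The run was intronic in 11 of the 14 annotated ADK transcripts and exonic in 0 of them. In exons, the longest ADK run was 8 nt, in the 3′ UTR, and no window of its MANE transcript matched more than 13 of 21 bases.

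ARHGAP29 had no such stretch. Its longest exonic run was 9 nt, in the coding sequence of exon 13 of the 23 exons of its MANE transcript. Over the whole span of that transcript, 68680 nt with introns included, 9 nt was also the longest run. The runs of 14 and 13 nt lie outside that span, in introns of a transcript with 26 exons annotated as a target of nonsense-mediated decay, and the 14 nt run also in a transcript with a retained intron. Allowing mismatches, the best windows of the spliced MANE transcript matched 16 of 21 bases, both of them across exon junctions. The capitals below mark the bases that match 7 GAA units.
ARHGAP29 exons 11 and 12: aAAGtAGAAGAAGcAaAtGAA
ARHGAP29 exons 13 and 14: GAAGAAGAAaAAGttGAtGgA
The study's motif search placed ARHGAP29 among the sites found in its high-confidence ORC1-bound RNAs (279 sites) and in its RIP-seq RNAs (1605 sites), both times at the exon 13 run, whereas ADK was in neither list. Here the site is the capitals in the first of the following lines, as listed for the high-confidence set, and in the second as listed for the RIP-seq set.
ARHGAP29 site, high-confidence set: aattcaactgAAGAAGAAAAagttgatgga
ARHGAP29 site, RIP-seq set: aaattcaactGAAGAAGAaaaagttgat

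**Figure D1:**
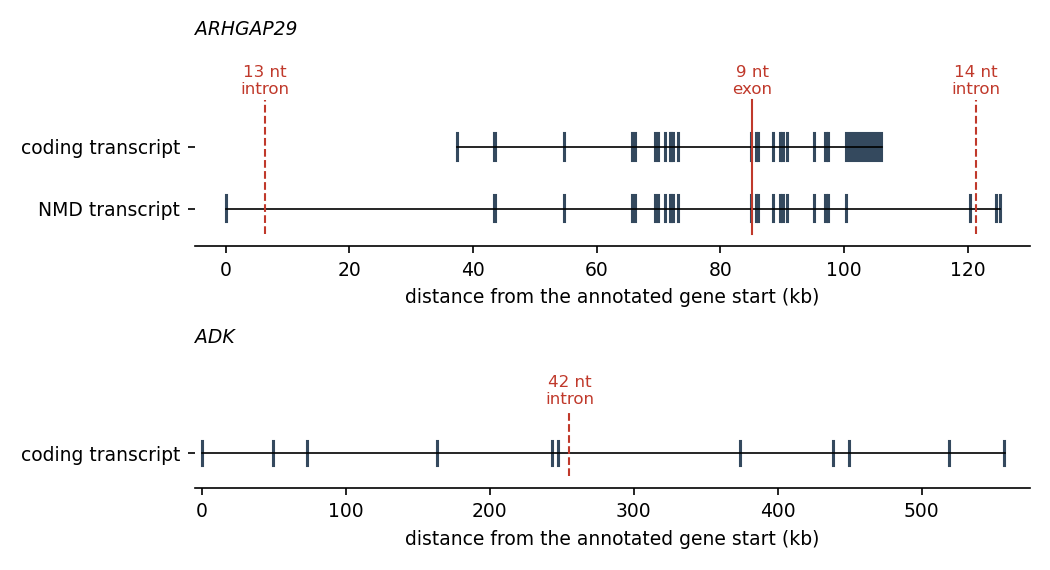
Maps of the MANE coding transcript of each gene, with the 26-exon transcript of ARHGAP29 marked NMD, drawn against the distance from the annotated gene start in kb (boxes, exons, with the thinnest widened to be visible). Red lines mark GAA runs, solid for exonic runs of 9 nt or more and dashed for intronic runs of 12 nt or more: ADK has 1 marked run, of 42 nt, deep inside an intron, and both marked intronic runs of ARHGAP29 lie beyond its coding transcript.

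Set against the 14751 tested genes with a gene model, ADK stood out for its length and its intronic run, and ARHGAP29 for neither to the same degree. The ADK gene body spans 558762 nt (chr10:74151202-74709963, GRCh38), and 94 of the tested genes (0.637%) were at least as long, the median being 26924 nt. ARHGAP29 spans 126081 nt (chr1:94148988-94275068), a length reached by 12.8% of tested genes. By transcript the order turned around, with 8952 nt for the longest ARHGAP29 transcript, reached by 5.84% of genes, and 3212 nt for that of ADK, reached by 52.9%. An exonic run at least as long as the 9 nt of ARHGAP29 was present in 24.1% of tested genes and one at least as long as the 8 nt of ADK in 49.96%. For introns, only 24 genes (0.163%), ADK included, held a run of 42 nt or more, and 749 (5.08%) one of 14 nt or more. These are counts of the reference genome, and the repeat length in HCT116 cells was not measured.

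The libraries held 10538284 to 17894953 counts in genes, the anti-GAA replicate 1 being the shallowest, and TMM factors, which scale each library for composition, were between 0.941 and 1.07. Levels are given as CPM, counts relative to library size, after that scaling. The epithelial markers expected of a colorectal line were present, with 7 of 8 tested and a summed level of 2693 to 3032 CPM with anti-GAA and 2797 to 3050 CPM with the control. Of 6 blood cell markers 2 passed the filter on low counts, HBB and ITGAM, with a sum over all 6 of 1.11 to 1.12 CPM with anti-GAA and 2.71 to 3.13 CPM in the controls, and CD3E was at 0. Of 6 fibroblast and endothelial markers only COL1A1 passed it, with a sum of 10.3 to 13.2 against 12.1 to 14.8 CPM, and COL1A2 and PECAM1 were at 0. In bulk RNA, fewer cells with a transcript and less of it per cell cannot be told apart.

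ARHGAP29 was counted 649 and 1424 times in anti-GAA replicates 1 and 2, and 2243 and 3655 times in control replicates 1 and 2. Scaled, these were 65.6 and 80.0 CPM with anti-GAA against 146 and 216 CPM with the control. Both anti-GAA libraries lay below both controls, and the lowest control was 1.83 times the highest anti-GAA library. The means were 72.8 ± 10.2 CPM (SD, n = 2) with anti-GAA and 181 ± 49.0 CPM (SD, n = 2) with the control. The 2 controls themselves were apart by 0.56 on the log2 scale, and their exact Poisson 95% intervals, 140 to 152 CPM and 209 to 223 CPM, did not overlap, so they differed by more than counting error. The 2 anti-GAA libraries were apart by 0.29, with intervals of 60.6 to 70.8 and 75.9 to 84.3 CPM. These intervals cover counting error only.

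Taken by replicate number, ARHGAP29 was at 44.8% of the control in replicate 1 and at 37.1% in replicate 2, or −1.16 and −1.43 on the log2 scale. The fitted log2 fold change over the 4 libraries was −1.31 (SE 0.25), a 2.48-fold lower level. With the replicates crossed, anti-GAA 1 against control 2 gave −1.71 and anti-GAA 2 against control 1 gave −0.87. The size of the ARHGAP29 difference therefore depended on which control it was set against, and its direction did not.

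ADK was counted 681 and 1534 times in anti-GAA replicates 1 and 2, and 2581 and 3071 times in control replicates 1 and 2. This corresponded to 68.8 and 86.2 CPM with anti-GAA against 168 and 181 CPM with the control. Again both anti-GAA libraries lay below both controls, by at least 1.95 times. The means were 77.5 ± 12.3 CPM (SD, n = 2) and 175 ± 9.05 CPM (SD, n = 2). The ADK controls were closer to each other than those of ARHGAP29, 0.11 apart on the log2 scale, while its anti-GAA libraries were 0.32 apart. ADK was at 40.9% of the control in replicate 1 and at 47.6% in replicate 2, or −1.29 and −1.07 on the log2 scale. The fitted log2 fold change was −1.17 (SE 0.21), a 2.25-fold lower level, and the crossed replicates gave −1.39 and −0.96.

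The 2 genes thus changed by nearly the same amount, and the pair that showed more of it was not the same, replicate 2 for ARHGAP29 and replicate 1 for ADK. Their mean levels over the 4 libraries put them side by side among the 15116 genes that passed the filter, at ranks 1523 and 1534. Per kb of longest transcript the control level was 20.2 CPM for ARHGAP29 and 54.4 CPM for ADK, so per length ADK was the more abundant RNA. For ARHGAP29 the longest transcript is the MANE transcript, of 8952 nt. For ADK it is one of 3212 nt annotated as a target of nonsense-mediated decay, and the MANE transcript has 1992 nt. A gene count sums all transcripts of a gene and cannot tell the ADK isoforms apart, nor spliced from unspliced RNA.

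**Figure D2:**
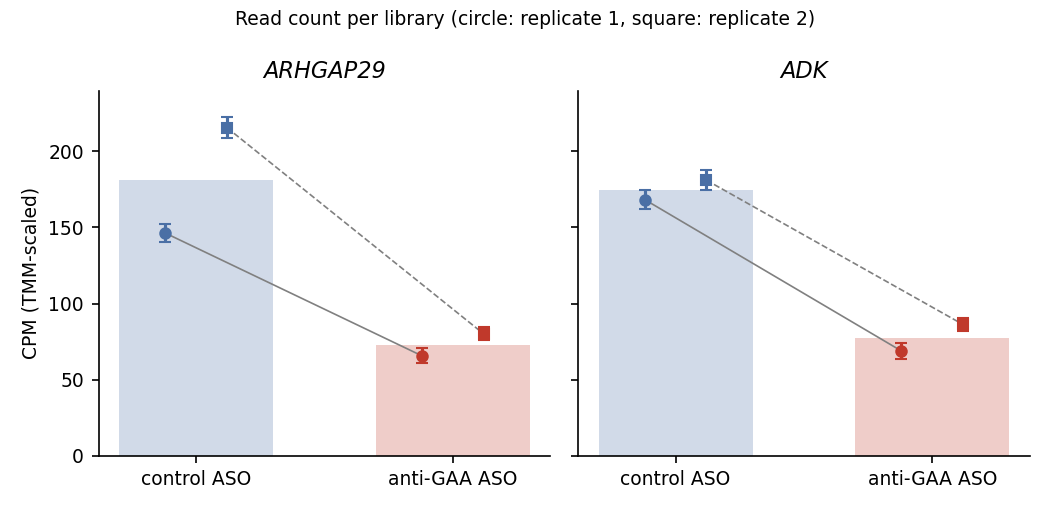
ARHGAP29 and ADK in each of the 4 libraries, in TMM-scaled CPM. Bars are means of 2 libraries, circles are replicate 1 and squares replicate 2 with exact Poisson 95% intervals, and lines join libraries of equal replicate number: all anti-GAA points lie between 65.6 and 86.2 CPM and all control points at 146 CPM or above.

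Differences of this size were rarer the higher the level of expression. No overlap between the conditions, with anti-GAA lower, was seen for 2554 of the 15116 tested genes (16.9%) and with anti-GAA higher for 2339 (15.5%), so the members shared their lack of overlap with many genes. A log2 fold change of −1 or lower was present in 270 of the 13805 genes whose mean reached 1 CPM (1.96%), in 25 of the 8894 that reached 10 CPM (0.281%) and in 3 of the 3796 that reached 50 CPM (0.079%). These 3 were EIF5B, a translation initiation factor, at −1.48, then ARHGAP29 and ADK. The next in order, named after their values were seen, were PPID at −0.94, ATF3 at −0.91 and ITPA at −0.90. As the members were chosen for this contrast, their place in that order is a description. Across all tested genes, the quasi-likelihood test of edgeR with Benjamini-Hochberg adjustment passed 0 genes with a lower level (0%) and 0 with a higher one when p was adjusted, at a threshold of 0.05. Before adjustment 523 genes with a lower level (3.46%) and 154 with a higher one (1.02%) passed it. DESeq2 called 5 genes lower (0.0331%) and 0 higher, and before adjustment 317 (2.1%) and 100 (0.662%).

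**Figure D3:**
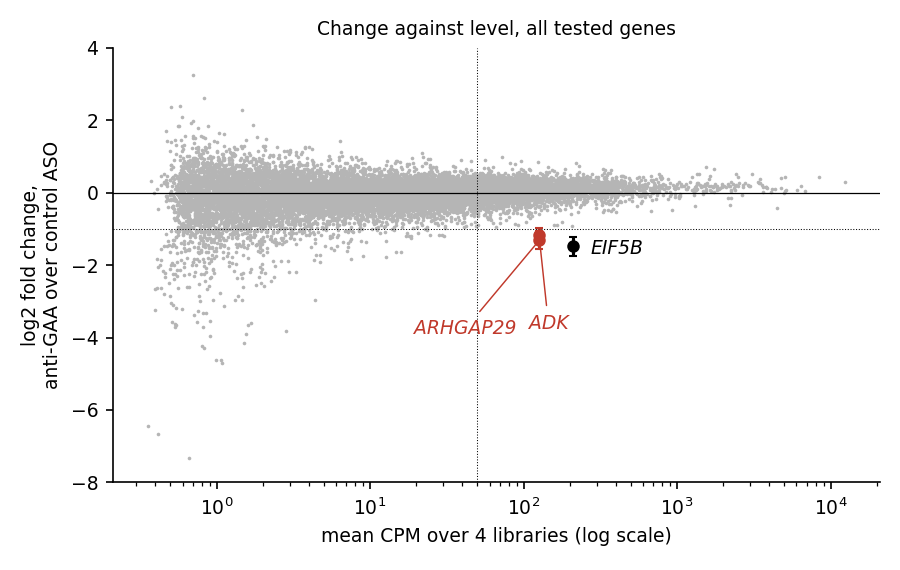
Fitted log2 fold change, anti-GAA over control ASO, against the mean CPM over the 4 libraries on a log scale, with each of the 15116 tested genes as a grey point. Bars on the 3 named genes are standard errors, and dotted lines mark 50 CPM and a log2 fold change of −1: only ARHGAP29, ADK and EIF5B lie beyond both.

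Long genes as a class were lower with anti-GAA. Both members lay far below the median of their class, but they were chosen for their lower counts, so that distance is a description. With the 2 members left out, 45.7% of the 4086 genes under 10 kb had a log2 fold change below 0, at a median of 0.039. The share was 59.1% for the 2092 genes of 100 to 300 kb, the class of ARHGAP29, with a median of −0.065, and 70.7% for the 440 genes of 300 kb and over, the class of ADK, with a median of −0.175. The medians in the class of ADK were −0.20 in replicate pair 1 and −0.18 in pair 2. A log2 fold change of −1 or lower was found in 3.30% of the ARHGAP29 length class, in 4.77% of the ADK length class and in 3.17% of all 14749 genes. No class was tested, and whether length had a part in the levels of the members was not tested.

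Genes with long GAA runs were lower as a class as well, exonic or intronic. Of the 456 genes with an exonic run of 12 nt or more, 69.1% were below 0, with a median of −0.14. At 15 nt or more the median was −0.38 with an exonic run (119 genes) and −0.27 with a run in an intron only (474 genes). Of the 1218 genes with a run of 12 nt or more in an intron only, 68.0% were below 0, with a median of −0.14. The 13075 genes with no run of 12 nt in an intron or an exon had 45.8% below 0 and a median of 0.031. Among genes with no exonic run of 12 nt, the median went from −0.082 for the 759 genes whose longest intronic run was 12 to 14 nt to −0.26 for the 356 genes with 15 to 20 nt and −0.33 for the 80 genes with 21 to 41 nt. Of these 80 genes 82.5% were below 0, and 13.8% were at −1 or lower. Length and run overlap, so both were set side by side. Among genes of 300 kb and over, those with an intronic run of 21 nt or more (26 genes) had a median of −0.35 and 84.6% below 0, and those without (384 genes) a median of −0.15 and 70.1% below 0. In the class of 100 to 300 kb the medians were −0.30 with such a run (45 genes) and −0.051 without (1926 genes). At 50 to 100 kb they were −0.072 with one (18 genes, 61.1% below 0) and 0.0054 without (2246 genes, 49.2% below 0), and in replicate pair 1 the order turned around, with 0.0065 against −0.025.

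The genes most like ADK in their repeat varied widely. Besides ADK, 23 tested genes held an intronic run of 42 nt or more, of which 16 were below 0 with a median of −0.185. The lowest value was −1.76 in PLCXD2, at a mean of 1.17 CPM. Of the 7 with at least 10 CPM, 5 were below 0 and the lowest, NOTCH3, was at −0.74 (SE 0.68). NDUFA12, a subunit of respiratory complex I with an intronic run of 75 nt, had a mean of 187 CPM, above that of ADK, and a log2 fold change of 0.37 (SE 0.19). PHLDB2, with a run of 90 nt, was at −0.57 (SE 0.31). The single genes of this set were named after their values were seen. For ARHGAP29, the genes with the same content as its coding transcript, an exonic run of 9 nt and no intronic run of 12 nt, numbered 1641. They had a median of −0.0097 and 51.5% were below 0, close to the 48.3% of all genes, and 48 of them (2.93%) were at −1 or lower. Whether pairing of the ASO with either RNA had a part in its lower count was not tested.

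**Figure D4:**
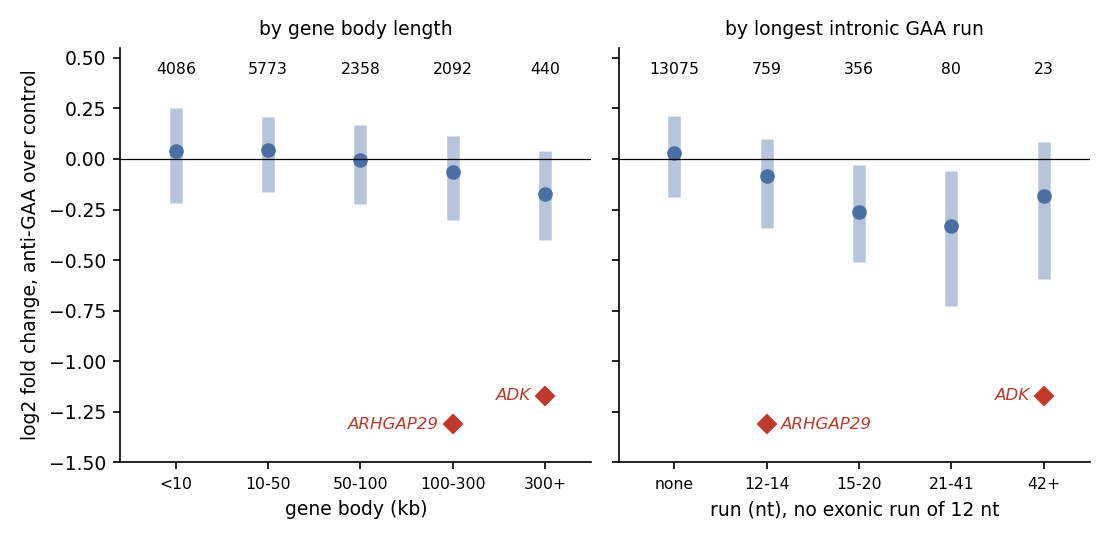
Median (dots) and interquartile range (bars) of the log2 fold change, anti-GAA over control ASO, by gene body length in kb on the left and by longest intronic GAA run in nt on the right, with the number of genes above each class and the members left out of it. Red diamonds are ARHGAP29 and ADK, at −1.31 and −1.17, below the interquartile range of each of their classes. Both were chosen as lowered genes, so their place below the classes is a description. The right place of ARHGAP29 is that of its 14 nt run, outside the coding transcript.

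None of the tested genes next to or across the members had a log2 fold change as low as theirs. The members were chosen for their lower counts and the neighbours were not, so this is a description. The antisense RNA gene ARHGAP29-AS1 overlaps the 5′ part of ARHGAP29 over 27250 nt, before the first exon of the MANE transcript. It was counted 18 and 24 times with anti-GAA and 32 and 54 times with the control, a log2 fold change of −0.75 (SE 0.44), far fewer counts than ARHGAP29. The strand setting of the counting is not given in the sources used here, so reads of the 2 genes in that stretch may not be told apart. RN7SL440P, also within ARHGAP29, was at 0 in every library. Downstream on the same strand, GCLM, the regulatory subunit of the enzyme that starts glutathione synthesis, was at 190 and 129 CPM with anti-GAA against 164 and 94.7 CPM, a log2 fold change of 0.30 (SE 0.32). Upstream, ABCD3, a peroxisomal transporter, was at −0.11 (SE 0.22).

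ADK is overlapped by 8 annotated genes, most of them processed pseudogenes, and of these only RPSAP6 and POLR3DP1 had any count, at most 4 in a library. Its closest neighbour, AP3M1, encodes an adaptor subunit for vesicle transport and starts 360 nt away on the other strand. AP3M1 was at 43.0 and 34.1 CPM with anti-GAA against 45.8 and 22.6 CPM with the control, so its conditions overlapped, and its log2 fold change was 0.17 (SE 0.35). KAT6B, a histone acetyltransferase gene 114964 nt downstream, was at −0.32 (SE 0.33), with 6.36 and 5.16 CPM against 5.79 and 8.48 CPM.

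The genes around ARHGAP29 were examined through lists of the RhoGAP family and of YAP and TEAD target genes, and by its partners. Over the 5 lists reported here, edgeR and DESeq2 both called 0 genes in either direction at an adjusted p under 0.05. Of 61 RhoGAP genes 48 were tested, 34 of them below 0, with a median of −0.17 against 0.013 for all tested genes. The anti-GAA libraries of 16 (33.3%) were both below both controls and those of 3 (6.25%) both above, against 16.9% and 15.5% of all tested genes. Only ARAP1 had an unadjusted p under 0.05, and it was below 1 CPM. Of the family at 1 CPM or more, the lowest was ARAP2 at −0.77 (SE 0.35) and the highest was SRGAP1 at 0.61 (SE 0.39). GMIP and ARHGAP45, which share the domain order of ARHGAP29, were at −0.31 (SE 0.30) and −0.089 (SE 0.30).

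RHOA, the main GTPase that ARHGAP29 switches off, was at 1481 and 1675 CPM with anti-GAA against 1036 and 1157 CPM, a log2 fold change of 0.52 (SE 0.20). Its relatives RHOB and RHOC were at 0.39 (SE 0.25) and 0.11 (SE 0.18). Among the Rap proteins, RAP1A was at −0.46 (SE 0.20), with 20.3 and 20.7 against 28.2 and 28.1 CPM. RAP2A, RAP2B and RAP2C were between −0.18 and 0.053. RASIP1, the adaptor that binds ARHGAP29, was at −1.09 (SE 0.48), at only 2.52 and 3.31 CPM against 3.71 and 8.83 CPM.

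Of 24 YAP and TEAD target genes 21 were tested, and 17 were below 0 with a median of −0.22. In 9 of them (42.9%, against 16.9% of all tested genes) both anti-GAA libraries were below both controls, and in 0 above (15.5% of all). Before adjustment AXL, CRIM1, F3, GADD45A and MYOF passed 0.05 with lower levels, 5 of 21 where 3.46% of all tested genes did. After adjustment the smallest p was 0.922, in the edgeR fit with condition as the only term. With a replicate term the calls in this list differed, as given in the closing section. F3, the tissue factor that starts coagulation, was the lowest at −0.85 (SE 0.24), with 59.6 and 40.3 CPM against 90.2 and 89.4 CPM. The classical targets CCN1 and CCN2 were at −0.32 (SE 0.42) and −0.22 (SE 0.23). The anti-GAA libraries of CCN1, 98.6 and 41.6 CPM, overlapped its controls at 107 and 67.6 CPM. LATS2, a kinase that restrains YAP, was the highest at 0.14 (SE 0.30).

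Around ADK, the genes of adenosine turnover and of methyl transfer had medians close to that of all genes. Of 45 genes of adenosine and AMP turnover 33 were tested, 16 below 0, with a median of 0.022. Both anti-GAA libraries were below both controls in 4 (12.1%, against 16.9% of all tested genes) and above in 9 (27.3%, against 15.5%). An unadjusted p under 0.05 was reached by 0 of them, and the smallest adjusted p was 0.996. ADA, which removes adenosine by deamination, was at 40.8 and 41.02 CPM against 49.0 and 45.4 CPM, a log2 fold change of −0.21 (SE 0.20). The adenosine transporter SLC29A1 was also at −0.21 (SE 0.23). NT5E, which makes adenosine outside the cell, was at 0.040 (SE 0.20), DCK, which phosphorylates deoxynucleosides, at 0.069 (SE 0.20), and PNP, which cleaves purine nucleosides, at −0.0023 (SE 0.28). The sugar kinases closest to ADK by fold family, RBKS and KHK, were at −0.022 (SE 0.34) and 0.84 (SE 0.50), KHK being the highest of the list at 2.42 and 3.54 CPM against 1.04 and 2.30 CPM. AK9, a nucleoside phosphate kinase, was the lowest at −0.98 (SE 0.48), at only 1.21 and 0.73 CPM against 2.02 and 1.71 CPM.

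In the methionine cycle and methyl transfer, 24 of 29 genes were tested and 10 were below 0, with a median of 0.034 and 0 genes at an unadjusted p under 0.05. AHCY, whose forward reaction depends on the removal of adenosine, was at 464 and 476 CPM with anti-GAA against 418 and 494 CPM with the control, and the conditions overlapped, with a log2 fold change of 0.044 (SE 0.19). MAT2A, which makes S-adenosylmethionine, was at 0.38 (SE 0.30). The extremes were MAT1A at −0.90 (SE 0.73) and the DNA methyltransferase DNMT3A at 0.59 (SE 0.29). MAT1A was at only 0.40 and 1.52 CPM with anti-GAA against 0.98 and 2.83 CPM, so its conditions overlapped. All 13 genes of purine synthesis were tested, 3 of them below 0, with a median of 0.15. Their range ran from −0.24 (SE 0.21) in PRPS2 to 0.56 (SE 0.35) in IMPDH1.

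**Figure D5:**
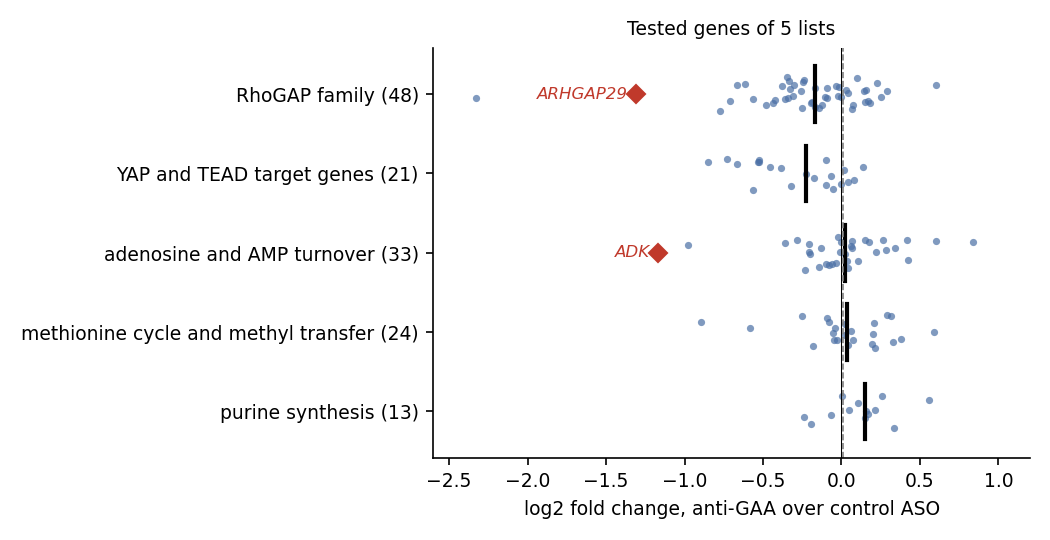
Log2 fold change, anti-GAA over control ASO, of the tested genes of 5 lists (points, spread vertically for visibility, with the number tested in brackets), with the median of each list as a black bar and that of all tested genes as a dashed line. ARHGAP29 and ADK (red diamonds, not counted in the lists) lie at −1.31 and −1.17, lower than all genes beside them except ARAP1 in the RhoGAP family. Unlike the genes of the lists, both were chosen for their lower counts.

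The genes whose 4 values varied most like those of ARHGAP29 were found by the Euclidean distance between log2 CPM values centred on the mean of each gene, over 4 libraries and 13804 genes of at least 1 CPM. The nearest with a name were KIF26B at a distance of 0.074, CLEC16A at 0.15 and THSD1 at 0.16. CLEC16A, a regulator of mitophagy, was the only one of these above 10 CPM, with 30.5 CPM and a log2 fold change of −1.19. For ADK they were FARP1-AS1 at 0.080, ENPEP at 0.13, PLAC8L1 at 0.14 and LDLRAD4 at 0.16, all under 4 CPM. ADK was the 31st nearest gene to ARHGAP29 and ARHGAP29 the 42nd nearest to ADK, at a distance of 0.34. With 4 points per gene that share their libraries and depth, this is a description of the pattern.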

How the data were processed

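RNA was measured in 4 libraries of HCT116 cells. The authors trimmed reads, aligned them with STAR, removed reads on GL contigs and counted them per annotated gene of hg19 with featureCounts, and deposited raw counts for 63677 genes without normalization. The Ensembl release and the strand setting are not given in the sources used here. Genes kept by filterByExpr (15116) were scaled by TMM and fitted with edgeR 4.0.16 in R 4.3.3 (quasi-likelihood, condition as the only term, Benjamini-Hochberg adjustment), and DESeq2 1.42.0 was an alternative. Log2 CPM used a prior count of 2. Each standard error (SE) of a fitted log2 fold change is its absolute value divided by the square root of the quasi-likelihood F statistic. Gene models and sequence came from GENCODE 44 on GRCh38, joined by Ensembl identifier (52181 genes matched), since the table holds no coordinates. The members, lists and comparison genes were chosen with earlier results of these data known. Named were the members, their relatives, neighbours and partners, the extremes of each list at 1 CPM or more, and the 5 genes nearest in pattern (those without a gene name were left out of the text). Alternatives were another tool, scaling, filter, prior count and run length, the replicate number as a term, and each library left out. Some fixed comparison genes and 1 list are not reported here.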

Additional observations from a re-analysis of the deposited data

How the results depend on the processing

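Both members were lower with anti-GAA under every alternative run. Leaving out each library in turn gave −1.57 to −0.998 for ARHGAP29 and −1.34 to −1.01 for ADK, and 0 to 16 genes called lower and 0 to 3 called higher, the 16 without control replicate 1. Scaling to total counts gave −1.41 for ARHGAP29 and −1.26 for ADK while it moved the median of all genes from 0.013 to −0.081. Libraries of equal replicate number also share a number in their titles, which the labels do not explain as a batch, a day or an experiment. Replicate 1 minus 2 correlated between the conditions at r = 0.564 across 15116 genes, which are not independent. A block for the replicate number in the edgeR fit gave 207 calls with a lower level (1.37%) and 51 with a higher one (0.337%), and −1.30 (SE 0.14) for ARHGAP29 and −1.18 (SE 0.14) for ADK. Among the pathway lists the block called 4 genes lower (ECT2 and the YAP and TEAD targets CRIM1 and F3 among them). DESeq2 with the block, added after seeing the data, called 45 lower and 13 higher, with 2 of the lists lower (ECT2 and F3). DESeq2 without it called 5 lower. With no filter on low counts edgeR called 111 lower and 5 higher, and 4785 of 28017 genes did not overlap with anti-GAA lower, ARHGAP29 and ADK among them. The cause of these changes was not tested. The share of genes with an exonic run at least as long became 20.1% (ARHGAP29) and 43.3% (ADK) over the longest transcripts only, and 17.4% and 88.6% for the best window of 21 nt. The median of genes with an intronic run only was −0.27 at a minimum of 15 nt and −0.31 at 21 nt, the latter added after seeing the data. Counts of 649 to 3655 per library bound the counting error, and 2 libraries per condition limit the precision.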
